A study of Macaca nemestrina with 15 samples.

Results

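*PHTF2*, *ASPH*, *KLF7*, *UBE2J1*, *TMEM170B* and *TMCC3* are 6 genes outside the classic set of B-cell markers that had a lower level, in CPM (counts scaled to library size by edgeR's TMM method), at week 12 than before treatment in each of 5 macaques. They were selected on those measured values, so their fall at week 12 is a description and carries no test. All 6 passed the filter on low counts and are among 12880 features tested, out of 28865 in the table. The same fall in 5 of 5 animals was found for 445 of the tested features, or 3.45%. The study itself reported *PHTF2*, *ASPH* and *TMCC3* as differentially expressed at week 12 by DESeq2's Wald test. Its report rests on the same libraries as the selection.

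RNA was sequenced from peripheral blood mononuclear cells (PBMCs), the lymphocytes and monocytes of blood, of 5 female pig-tailed macaques (*Macaca nemestrina*). Every animal received oral islatravir (ISL), a nucleoside inhibitor of reverse transcriptase translocation, at 30 mg/kg once a week for 12 weeks. Each gave 1 library before the first dose, 1 at week 12 and 1 at week 18. The study's methods put week 18 at 6 weeks after dosing stopped, while a figure legend of the study gives a shorter time. No untreated animals were sequenced, so time and drug cannot be told apart. The 15 libraries held 5610597 to 10379572 counts, and the shallowest were those of animal Z15303 at week 12 (5610597) and at week 18 (5886482). Going by the dates that the library names carry, the later samples came 56 or 57 days and 84 days after the first. These are fewer weeks than the labels week 12 and week 18 state, and the labels are used here. Animals Z15303, Z15339 and Z15408 carry the same dates at each time point.

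Several products of these genes sit in the membrane of the endoplasmic reticulum (ER), the compartment where secreted and membrane proteins are folded. *UBE2J1* encodes a ubiquitin-conjugating enzyme anchored there, which works in ER-associated degradation, the route by which misfolded proteins are pulled into the cytosol and destroyed. *ASPH* encodes aspartate beta-hydroxylase, an ER enzyme that hydroxylates domains of secreted proteins, and the same locus gives shorter products that take part in calcium handling. *TMCC3* encodes a coiled-coil membrane protein of ER tubules. *PHTF2* encodes a membrane protein that was first named as a putative homeodomain transcription factor, and *TMEM170B* a small transmembrane protein. *KLF7* encodes a zinc finger transcription factor of the Krüppel-like family. *MS4A1*, which encodes the B-cell surface protein CD20, is the gene with which they are compared.

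*PHTF2* was read at 51.5 CPM in Z15228, 45.9 in Z13076, 56.1 in Z15339, 60.5 in Z15303 and 53.1 in Z15408 before treatment. At week 12 the same animals had 36.3, 29.0, 35.7, 33.0 and 33.1 CPM. The highest value at week 12 lay below the lowest before treatment, so the groups did not overlap. The mean went from 53.4 ± 5.44 to 33.4 ± 2.89 CPM (SD, n = 5), a log2 fold change of −0.68 (SE, the standard error of the edgeR fit, 0.12). Within animals *PHTF2* changed by −45.5% to −29.5%, and the SD of its log2 ratios over the 5 animals was 0.13, which was narrower (0.08) for *ASPH* alone among the 6 genes. At week 18 the values were 33.8, 37.3, 27.9, 32.9 and 43.1 CPM in the same order, again all below the pre-treatment range. In bulk samples, fewer cells of a type and less RNA per cell cannot be told apart.

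*ASPH* stood at 41.6, 41.6, 60.1, 60.6 and 45.1 CPM before treatment in Z15228, Z13076, Z15339, Z15303 and Z15408, the order used for every gene that follows. At week 12 it had 27.8, 30.4, 41.0, 38.5 and 32.1 CPM. These groups did not overlap either, though the margin between 41.0 and 41.6 CPM was thin, and Z15339 and Z15303 remained the highest animals. The mean fell from 49.8 ± 9.73 to 34.0 ± 5.58 CPM (SD, n = 5), with a log2 fold change of −0.55 (SE 0.15) and changes within animals of −36.5% to −26.8%. At week 18 *ASPH* had 37.8, 39.6, 41.9, 32.4 and 33.7 CPM, lower than before treatment in each animal, with a change of only −4.76% in Z13076. Of all tested features, 0.163% were lower at week 12 without overlap between the groups, and *PHTF2* and *ASPH* were the 2 of the 6 genes among them.

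*UBE2J1* had 111, 99.3, 128, 116 and 114 CPM before treatment and 97.0, 89.6, 102, 77.6 and 89.9 CPM at week 12. The lowest of the 10 values belonged to Z15303, whose week 12 library was also the shallowest. The fall was the smallest among the 6 genes, from 113 ± 10.2 to 91.2 ± 9.23 CPM (SD, n = 5; log2 fold change −0.31, SE 0.10). At week 18 *UBE2J1* had 88.6, 89.7, 97.7, 90.9 and 91.1 CPM, the group with the lowest coefficient of variation (3.89%) among the 18 of these genes and time points (91.6 ± 3.57 CPM, SD, n = 5). At week 12 the highest animal overlapped the pre-treatment range, and at week 18 none did.

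*KLF7* was read at 14.7, 13.9, 16.3, 16.5 and 19.9 CPM before treatment, 10.3, 11.5, 11.4, 9.76 and 13.9 CPM at week 12, and 12.7, 16.7, 13.97, 12.0 and 13.3 CPM at week 18. Z15408 held the highest value before treatment and at week 12, where it overlapped the pre-treatment range. The log2 fold change at week 12 was −0.51 (SE 0.15), from 16.3 ± 2.34 to 11.4 ± 1.61 CPM (SD, n = 5). *KLF7* was the exception at week 18, since in Z13076 it was 20.4% above its pre-treatment value, and the groups overlapped there too.

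*TMEM170B* had 28.6, 31.4, 31.2, 37.0 and 38.1 CPM before treatment, 16.4, 18.9, 25.0, 23.6 and 31.6 CPM at week 12, and 24.7, 30.7, 27.3, 22.8 and 28.9 CPM at week 18. The groups overlapped at both later time points. By week 12 the mean had gone from 33.3 ± 4.07 to 23.1 ± 5.88 CPM (SD over 5 animals), and the log2 fold change was −0.53 (SE 0.16). The change within animals was −17.1% in Z15408 and −42.8% in Z15228, and at week 18 it was as small as −2.33% in Z13076.

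*TMCC3* was read at 40 to 207 counts per library. It had 20.2, 10.03, 13.7, 15.7 and 23.6 CPM before treatment, 11.0, 8.66, 7.61, 7.92 and 14.6 CPM at week 12, and 8.92, 9.02, 8.05, 7.08 and 15.9 CPM at week 18. Z15408 was the highest animal throughout, and both later groups overlapped the pre-treatment range. The mean of *TMCC3* was 16.7 ± 5.34 CPM before treatment, then 9.96 ± 2.92 and 9.80 ± 3.51 CPM at the later time points (SD, n = 5). The week 12 log2 fold change of −0.74 (SE 0.27) was the deepest of the 6, yet the change within animals reached from −13.7% in Z13076 to −49.7% in Z15303.

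**Figure D1:**
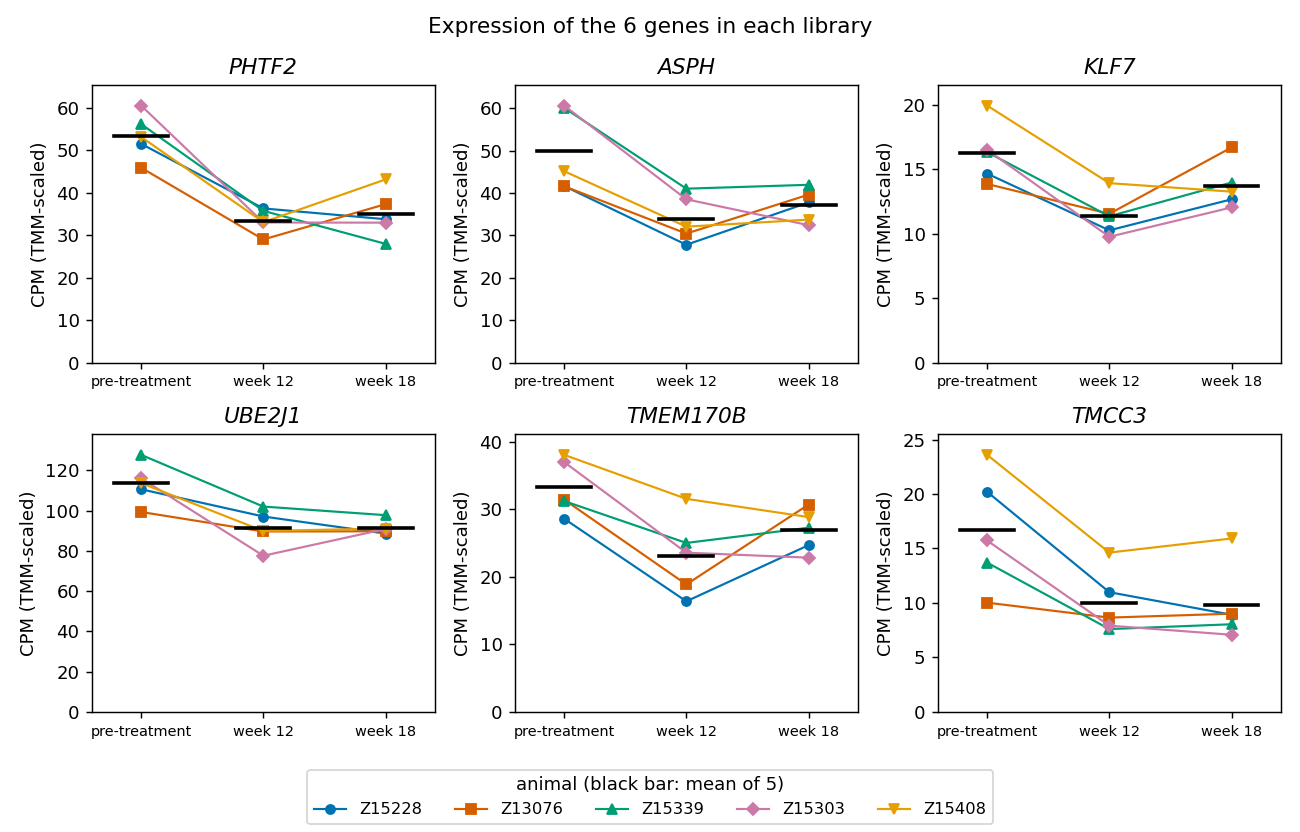
CPM of the 6 genes (vertical axis, from 0, TMM-scaled) at the 3 time points, with 1 line per animal and a black bar at the mean of 5 animals. Every line descends from pre-treatment to week 12, and *PHTF2* at week 12 (29.0 to 36.3 CPM) lies wholly below its pre-treatment values (45.9 to 60.5 CPM).

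The 6 genes do not hold the steepest falls among the features lower in 5 of 5 animals. Ordered by log2 fold change at week 12 among those 445 features, *TMCC3* was number 69, *PHTF2* 77, *ASPH* 118, *TMEM170B* 134, *KLF7* 141 and *UBE2J1* 256. At the edge of the rule, the smallest fall in a single animal among the 6 was a log2 ratio of −0.15 for *UBE2J1* in Z13076. Just outside it stood *FGD6*, with a log2 fold change of −0.77 over all libraries, a log2 ratio of 0.01 in Z15303, and only 12 to 57 counts.

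The sizes of the falls were not spread evenly over the animals. At week 12 Z15303 had the deepest fall for 5 of the 6 genes, all but *TMEM170B*, and Z13076 the shallowest for 4. At week 18 Z13076 had the shallowest fall for 5 genes and the 1 rise, that of *KLF7*, and the deepest falls were divided between Z15228, Z15339, Z15303 and Z15408. Without Z15303 the week 12 log2 fold changes were −0.61 for *PHTF2*, −0.51 for *ASPH*, −0.45 for *KLF7*, −0.24 for *UBE2J1*, −0.48 for *TMEM170B* and −0.67 for *TMCC3*. Without it the week 18 values lay between −0.68 (*TMCC3*) and −0.19 (*KLF7*). In the 3 animals that share dates, the mean log2 ratio at week 12 lay between −0.84 (*TMCC3*) and −0.41 (*TMEM170B* and *UBE2J1*). In the other 2 animals it lay between −0.77 (*TMEM170B*) and −0.17 (*UBE2J1*), where the negative sign of both sets was fixed by the selection. At week 18 the 3 animals gave −0.83 (*TMCC3*) to −0.35 (*UBE2J1*) and the other 2 gave −0.67 (*TMCC3*) to 0.03 (*KLF7*).

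Week 18 addresses whether expression differed from baseline once dosing had stopped, for 6 weeks by the study's methods. The dates in the library names do not match that time. The comparison uses the same pre-treatment libraries as the selection, so pre-treatment values that happened to be high enter both, and the result is not independent. Of the 6 genes, 5 were lower than before treatment in 5 of 5 animals, against 3.49% of all tested features, and 2 (*PHTF2* and *UBE2J1*) did not overlap with pre-treatment, against 0.202%. EdgeR's quasi-likelihood test was fitted on time point alone, which leaves out the pairing of libraries by animal. It gave none of the 6 an adjusted p under 0.05 over all features. The count over all tested features was 0 as well (0%), with 218 that had an unadjusted p under 0.05. DESeq2 without a block and limma-voom also called 0 features. The log2 fold changes were −0.61 (SE 0.12) for *PHTF2*, −0.42 (0.15) for *ASPH*, −0.31 (0.10) for *UBE2J1*, −0.24 (0.15) for *KLF7*, −0.31 (0.16) for *TMEM170B* and −0.76 (0.27) for *TMCC3*, each with an edgeR adjusted p of 1. The value of *KLF7* was −0.37 without Z13076 and −0.14 without Z15408.

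The animal as a block brought 2 genes nearer to the threshold at week 18. These p-values too use the pre-treatment libraries of the selection, which favours high values there, so they are not an independent test. *PHTF2* had an adjusted p of 0.0897 and *TMCC3* of 0.0972 in edgeR's test with that block, and the other 4 genes had adjusted p from 0.512 (*ASPH*) to 0.881 (*KLF7*). For *TMCC3* the block reduced the standard error from 0.27 to 0.16, and for *PHTF2* it left it at 0.13 against 0.12. That fit called 1 feature in all (0.00776%). DESeq2's Wald test with the block put both past the threshold, with adjusted p of 0.00897 for *PHTF2* and 0.0229 for *TMCC3*, among 50 of 20732 features called (0.241%). With the block and without Z13076, *TMCC3* also passed in edgeR (log2 fold change −0.90, adjusted p = 0.0422), in a fit that called 0.132% of its features, an alternative chosen after the data were seen. Z13076 was the animal with the shallowest fall of *TMCC3*. In edgeR fits with the block that left out another animal, *TMCC3* had an adjusted p of 0.254 to 0.768, and over all 5 such fits *PHTF2* had 0.0634 to 0.704.

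The difference between week 18 and week 12 shares the week 12 libraries with the selection, which favours low values there. None of the 6 genes was higher in all 5 animals, against 2.97% of all tested features, and none was lower in all 5, against 2.87%. *KLF7* had the largest log2 fold change, 0.27 (SE 0.15, edgeR adjusted p = 1), and was higher in 4 of 5 animals. *TMEM170B* followed with 0.22 (0.16), *ASPH* with 0.13 (0.15) and *PHTF2* with 0.07 (0.12). *UBE2J1* (0.01, SE 0.10) and *TMCC3* (−0.02, SE 0.27) had values near 0. No feature passed in this comparison with edgeR (0%), and 65 had an unadjusted p under 0.05. DESeq2 without a block and limma-voom called 0 as well. For the comparison of week 12 with pre-treatment the edgeR count was likewise 0 (0%), with 207 features at an unadjusted p under 0.05, 140 of them lower. DESeq2 without a block called 1 and limma-voom 0, and DESeq2 with the animal as a block called 27. The study's own DESeq2 list for this comparison held more genes than the fit without a block called here. Its standard error for *MS4A1* was 0.19. In edgeR here that error was 0.19 with the animal as a block and 0.58 without it. The study's methods state no such block, and the cause of the difference in calls was not tested.

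**Figure D2:**
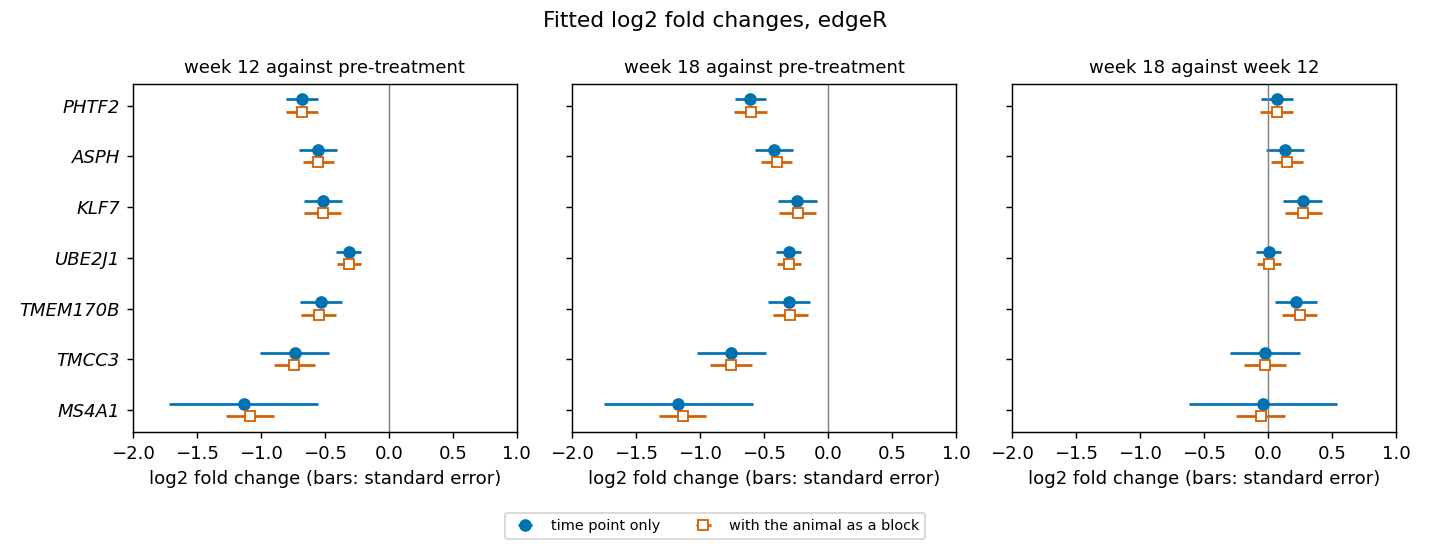
Log2 fold change (horizontal axis) of the 6 genes and *MS4A1* in the 3 comparisons from edgeR, with bars of 1 standard error, filled circles for the fit on time point alone and open squares for the fit with the animal as a block. The bar of *MS4A1* at week 12 shrinks from 0.58 to 0.19 with the block and that of *TMCC3* from 0.27 to 0.16, while that of *PHTF2* stays at 0.12 to 0.13.

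Before treatment each of the 6 genes differed less between animals than *MS4A1* did. The coefficient of variation over 5 animals before treatment was 9.01% for *UBE2J1*, 10.2% for *PHTF2*, 12.2% for *TMEM170B*, 14.4% for *KLF7*, 19.5% for *ASPH* and 32.1% for *TMCC3*. It was 85.01% for *MS4A1*, with a median of 21.7% over all tested features. *MS4A1* had 191, 32.5, 75.2, 42.2 and 44.8 CPM before treatment, so its highest animal held 5.88 times the level of its lowest, while the same ratio was 1.29 for *UBE2J1* and 1.32 for *PHTF2*. At week 12 *MS4A1* had 85.4, 19.2, 24.3, 24.3 and 21.9 CPM and at week 18 79.7, 25.6, 37.5, 10.8 and 17.1 CPM, and each animal was lower than before treatment at both. At both later time points Z15228 stood higher than the other 4 animals had stood before treatment, and the groups overlapped.

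Of the sum of squares of log2 CPM over 15 libraries, differences between time points made up 79.3% for *PHTF2*, 65.4% for *UBE2J1*, 59.7% for *KLF7*, 56.5% for *ASPH*, 49.9% for *TMEM170B* and 44.0% for *TMCC3*. The selection by time point favours high shares here. For *MS4A1* the share was 26.4%, and the median of all features was 6.23%. Differences between animals made up 4.04% for *PHTF2*, 46.2% for *TMCC3* and 65.7% for *MS4A1*, and 51.9% in the median feature. *TMCC3* was the only gene of the 6 with more variation between animals than between time points.

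**Figure D3:**
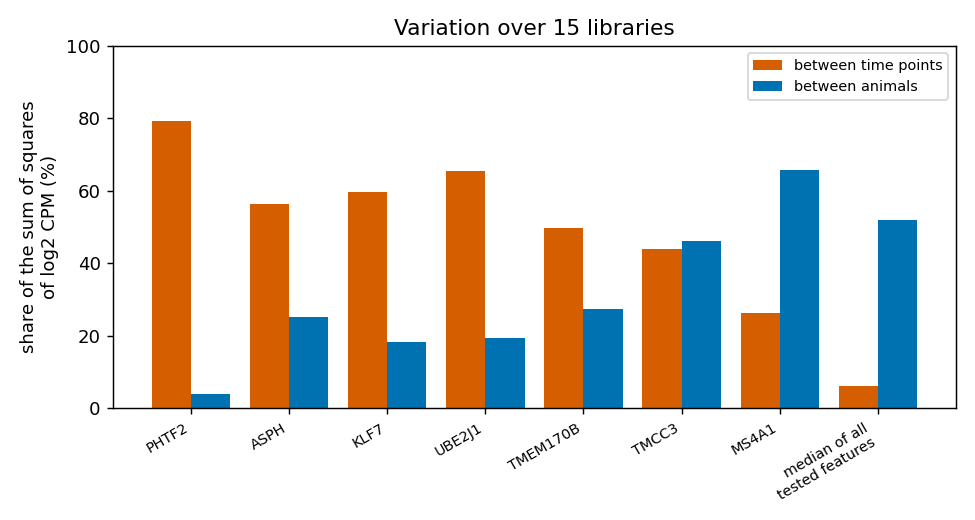
Share of the sum of squares of log2 CPM over 15 libraries, in percent, that lies between time points (orange) and between animals (blue), for the 6 genes, *MS4A1* and the median of all tested features. The orange bar exceeds the blue one for 5 of the 6 genes, most in *PHTF2* (79.3% against 4.04%), and the order is turned for *TMCC3* and *MS4A1*.

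Across the 15 libraries the log2 CPM of the 6 genes followed that of *MS4A1* loosely. These are descriptions over 15 points in which 3 libraries share each animal and 5 share each time point. Pearson's r was 0.53 for *UBE2J1*, 0.46 for *TMCC3*, 0.45 for *PHTF2*, 0.33 for *ASPH*, 0.23 for *KLF7* and 0.06 for *TMEM170B*, with Spearman's rho of 0.43, 0.44, 0.50, 0.43, 0.32 and 0.14 in that order. For 21 other tested B-cell markers the median r with *MS4A1* was 0.77, with a range of 0.26 to 0.95. *UBE2J1*, *TMCC3*, *PHTF2* and *ASPH* lay inside that range, and *KLF7* and *TMEM170B* below it. Z15228, whose *MS4A1* stood far above the other animals at every time point, weighed heavily on these values, and without it r was 0.87 for *ASPH*, 0.77 for *UBE2J1*, 0.63 for *PHTF2*, 0.62 for *TMEM170B*, 0.61 for *KLF7* and 0.46 for *TMCC3*. For *TMCC3* it was Z15408 whose absence moved r most, to 0.78. Without the 2 libraries farthest from the median of *MS4A1*, which were Z15228 before treatment and Z15303 at week 18, r was 0.48 for *UBE2J1*, 0.31 for *PHTF2*, 0.29 for *ASPH*, 0.14 for *KLF7*, 0.13 for *TMCC3* and −0.09 for *TMEM170B*, so the value of *TMCC3* rested largely on those 2.

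The picture differed between changes within an animal and differences between animals. On deviations from each animal's own mean, r with *MS4A1* was 0.91 for *TMCC3*, 0.87 for *ASPH*, 0.80 for *PHTF2*, 0.75 for *UBE2J1*, 0.74 for *TMEM170B* and 0.73 for *KLF7*, beside a median of 0.85 for the other B-cell markers. The fall that the selection fixed is part of those deviations. On deviations from the mean of each time point, which leave only differences between animals, r was 0.22 for *UBE2J1*, 0.19 for *TMCC3*, 0.01 for *PHTF2*, −0.06 for *ASPH*, −0.17 for *KLF7* and −0.41 for *TMEM170B*. The other B-cell markers kept a median of 0.68 there (range −0.02 to 0.93), and all tested features had a median of 0.00, against 0.01 on deviations from the animal's mean. Over all 5 animals, r of *PHTF2* and *ASPH* with *MS4A1* between animals was thus near 0. Z15228 stood far above the other animals in *MS4A1*, and these values were not computed without it. On levels its absence moved r of *ASPH* from 0.33 to 0.87, so the value near 0 for *ASPH* may rest on that animal.

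**Figure D4:**
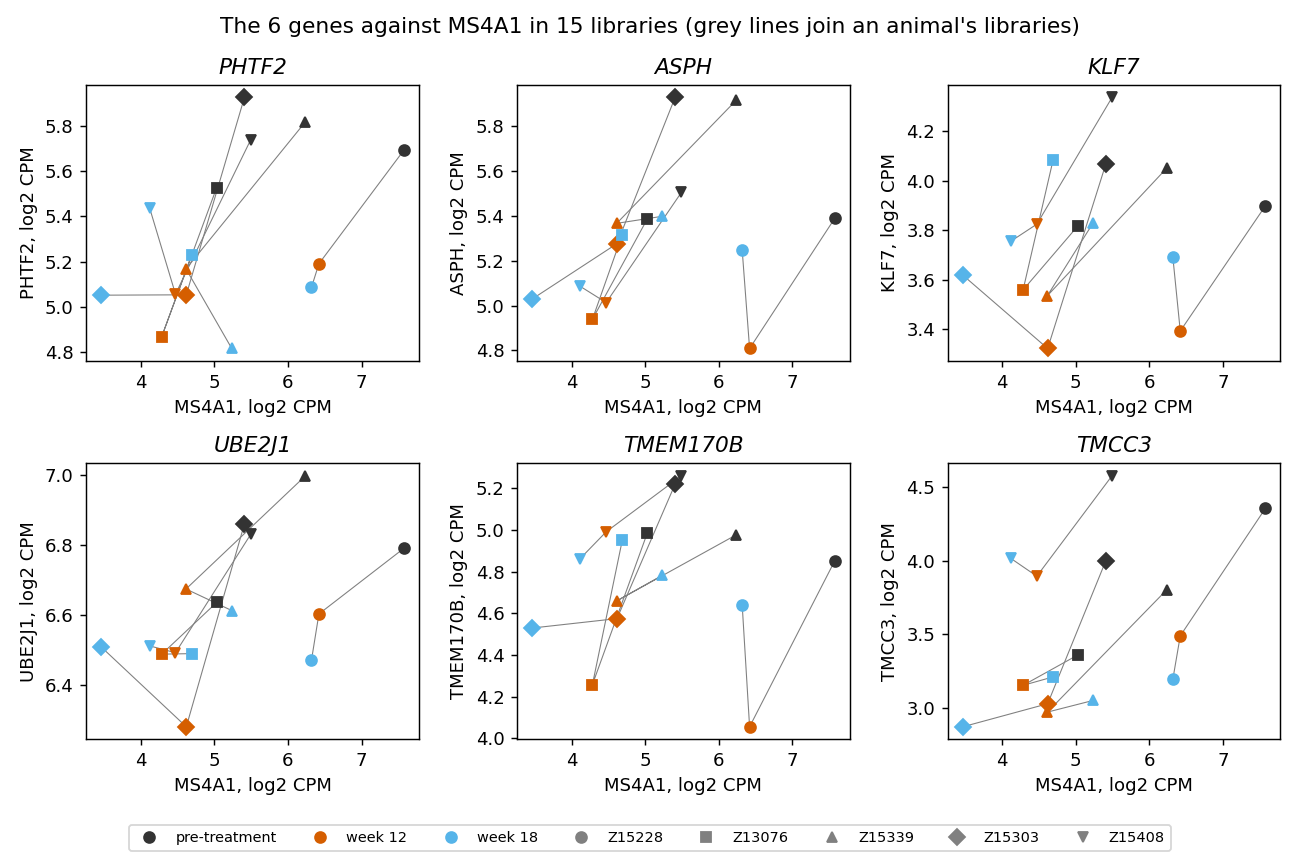
Log2 CPM of each of the 6 genes (vertical axis) against log2 CPM of *MS4A1* (horizontal axis) in 15 libraries, with color for the time point, shape for the animal and grey lines joining an animal's libraries. Within an animal the pre-treatment point lies to the upper right of its week 12 point, and Z15228 (circles) stands to the right of the other animals at each time point, with 79.7 to 191 CPM of *MS4A1*.

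Marker lists of blood cell types differed in how they moved. The B-cell list has 26 genes, of which 24 are in the table, none of them at 0 throughout, and 22 were tested. Its summed level was 425 to 1374 CPM before treatment, 268 to 747 at week 12 and 319 to 649 at week 18, and each animal was lower than before treatment at both times. At week 12 edgeR gave 0 of the 22 tested genes an adjusted p under 0.05, 10 had an unadjusted p under 0.05 and were lower, and the median log2 fold change was −0.92 against 0.00 over all tested features. Of the 22, 19 were lower in 5 of 5 animals (86.4%), against 3.45% of all tested features. With the animal as a block, 21 had an unadjusted p under 0.05 in edgeR and were lower, as were 419 of all 12880 tested features, and 0 of the 22 passed after adjustment. At week 18 the median was −0.85. The summed level of 15 T-cell markers went the other way, from 3611 to 3819 CPM before treatment to 3773 to 4575 at week 12 and 3782 to 4263 at week 18, and each animal was higher at both times. The monocyte list was lower at week 12 in 3 of 5 animals and at week 18 in 1 of 5, and the platelet list in 1 and 2. The plasma cell list was lower in 4 and 5 animals, the NK and dendritic cell lists each in 2 and 3, the red cell list in 4 and 3 and the neutrophil list in 2 and 1. Their part in the falls was not tested.

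The B-cell marker score, the mean log2 CPM of the list, was 4.07 ± 0.60 (SD, n = 5) before treatment, then 3.22 ± 0.51 and 3.17 ± 0.50 at weeks 12 and 18. With the score as a covariate and no block, the week 12 log2 fold changes were −0.66 for *PHTF2*, −0.51 for *ASPH*, −0.57 for *KLF7*, −0.23 for *UBE2J1*, −0.66 for *TMEM170B* and −0.62 for *TMCC3*, which differed by 0.02 (*PHTF2*) to 0.13 (*TMEM170B*) from the fit without the score. With the score and the animal as a block they were −0.65 (SE 0.35) for *PHTF2*, −0.37 (0.26) for *UBE2J1*, −0.29 (0.33) for *ASPH*, −0.25 (0.36) for *TMEM170B*, −0.18 (0.43) for *TMCC3* and −0.15 (0.39) for *KLF7*. Those standard errors were 2.62 to 2.77 times as wide as without the score. At week 18 in the same fit *KLF7* was at 0.13 (0.40) and *TMEM170B* at 0.00 (0.37). The other genes stayed negative there, with −0.59 (0.36) for *PHTF2*, −0.37 (0.27) for *UBE2J1*, −0.19 (0.45) for *TMCC3* and −0.13 (0.34) for *ASPH*. Neither fit can separate B-cell numbers from time. Without the block, the slope of the score also rests on differences between animals. With the block, the score changed together with the time points, and the standard errors widened. The part of B-cell numbers in these falls was not tested.

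The list of B-cell markers was also the one with the highest within-animal r for each of the 6 genes, from 0.74 (*KLF7*) to 0.93 (*TMCC3*). The T-cell list was negative for all 6, from −0.74 (*TMEM170B*) to −0.54 (*UBE2J1*). The fall that the selection fixed is part of these within-animal values. In each animal the summed B-cell list was also lower, and the summed T-cell list higher, than before treatment. Between animals at the same time point the lists differed by gene. *UBE2J1* had r of 0.67 with the plasma cell list and −0.68 with the monocyte list, *TMEM170B* had 0.43 with the monocyte list, and *TMCC3* −0.62 with the platelet list. *PHTF2* lay between −0.29 (NK cells) and 0.14 (monocytes) over the 9 lists on that scale.

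**Figure D5:**
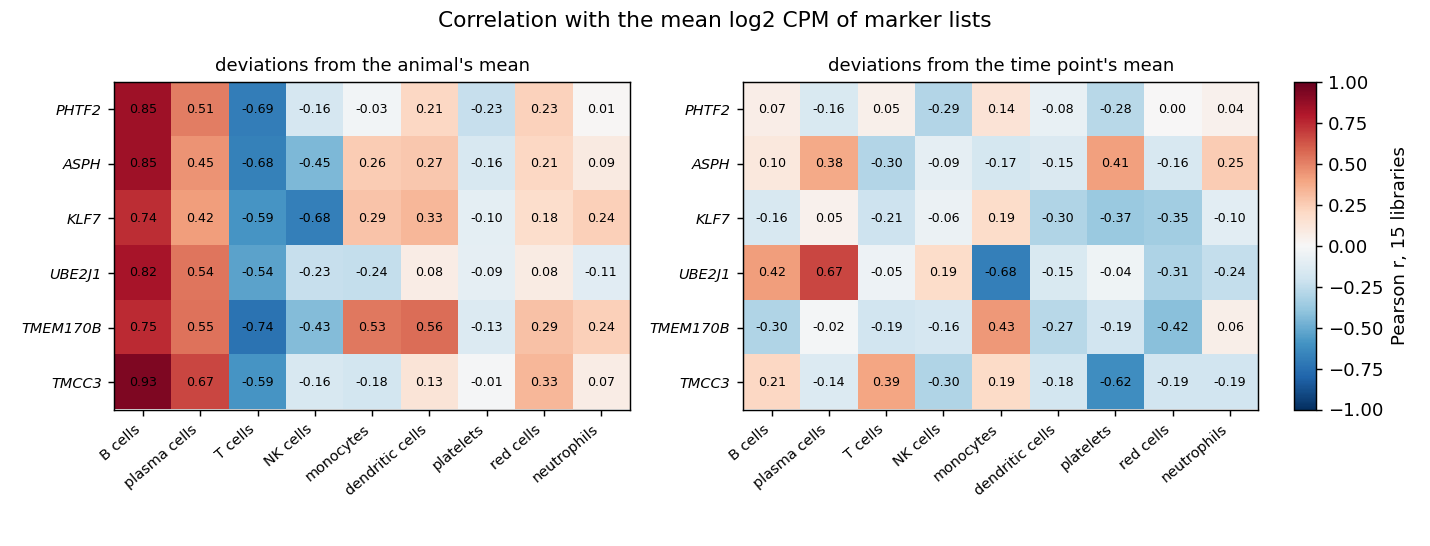
Pearson r over 15 libraries between log2 CPM of each of the 6 genes (rows) and the mean log2 CPM of 9 marker lists (columns), on deviations from the animal's mean (left) and from the time point's mean (right), colored from −1 to 1. The B-cell column is 0.74 to 0.93 on the left and −0.30 to 0.42 on the right.

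Among themselves the 6 genes form 15 pairs, with r of 0.33 to 0.85 and a median of 0.65 over 15 libraries. On deviations from the animal's mean r was 0.63 to 0.91 with a median of 0.83, a value the shared fall contributes to. On deviations from the time point's mean it was −0.29 to 0.69 with a median of 0.27. *KLF7* and *TMEM170B* had the highest value on that scale (0.69), and the pair of *ASPH* and *TMCC3* the lowest.

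The genes whose pattern was most like that of each gene were taken by within-animal r over 15 libraries among 10772 other features with a symbol. For *PHTF2* they were *FAS*, a death receptor (r = 0.94), *SP140*, a nuclear body protein (0.93), and *TMEM106B*, a lysosomal membrane protein (0.93). For *ASPH* they were *ME2*, a mitochondrial malic enzyme (0.92), *TMEM170B* (0.91) and *CD180*, a receptor of B cells and myeloid cells (0.90). *KLF7* was followed by the membrane ubiquitin ligase *MARCH1* (0.92), the sorting nexin *SNX2* (0.91) and the zinc finger gene *GZF1* (0.91). *UBE2J1* had the ubiquitin ligase *PELI1* (0.95), the adaptor *GAB1* (0.92) and *TMCC3* (0.90). *TMEM170B* had *DRAM2* (0.96), the autophagy gene *ATG3* (0.95) and the carnitine transporter *SLC22A5* (0.95). *TMCC3* had the B-cell kinase *BLK* (0.95), *PDCD1LG2* (0.94) and the exchange factor *VAV2* (0.93). On levels, without removing the animals' means, the closest feature was *LRRK1* for *PHTF2* (0.81), *ME2* for *ASPH* (0.86), *GAB1* for *UBE2J1* (0.92), *APPBP2* for *TMCC3* (0.87), and *DCK*, the kinase that phosphorylates deoxycytidine, for both *KLF7* (0.89) and *TMEM170B* (0.88). All of these genes had negative log2 fold changes at week 12, between −0.96 (*VAV2*) and −0.20 (*ATG3*). Their choice by likeness to genes selected for a fall at week 12 favours negative values there.

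None of the nearest relatives of these genes was lower in 5 of 5 animals at week 12 or week 18. Over all tested features the shares were 3.45% and 3.49%, so a count of 0 among so few relatives is near the background. Of 7 relatives 6 were tested, and by edgeR 0 had an adjusted p under 0.05 and 0 had an unadjusted p under 0.05 at either time point. *PHTF1* had a log2 fold change of −0.02 at week 12 (SE 0.19), *ASPHD2* 0.06 (0.23), *UBE2J2* 0.13 (0.14) and *TMEM170A* 0.29 (0.23). *TMCC1* stood at −0.11 (0.22) and *TMCC2* at 0.37 (0.39). The differences between a relative and its counterpart were not tested.

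Of 13 other tested genes of the Krüppel-like family, which hold transcription factors of many blood cells, 0 passed the adjusted test in edgeR, and 0 at week 12 and 1 at week 18 had an unadjusted p under 0.05. *KLF4*, a monocyte factor, was lower in 5 of 5 animals at week 12 (log2 fold change −0.41, SE 0.19), the sole such gene of the family besides *KLF7*. Over all tested features that share was 3.45%. In the other direction *KLF2* (0.23, SE 0.19) and *KLF6* (0.23, SE 0.13) were higher in 5 of 5 animals, as were 2.21% of all tested features, and *KLF2* is named after its values were seen. *KLF11* had −0.53 (0.27). *KLF6* had 0.29 (0.13) at week 18, with an unadjusted p of 0.0418, and the median of the family was 0.04 at week 12 and 0.00 at week 18.

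The ER lists gave no adjusted call in edgeR's test in any comparison. Of 35 tested genes of ER-associated degradation, 1 had an unadjusted p under 0.05 at week 12. That was *NGLY1*, which removes sugar chains from misfolded proteins, at −0.22 (SE 0.10), lower in 5 of 5 animals, as were 3.45% of all tested features. *FAM8A1*, a partner of the ubiquitin ligase encoded by *SYVN1*, had −0.37 (0.18) and *SYVN1* itself −0.07 (0.13) at week 12 and −0.19 (0.13) at week 18. The median of the list was −0.04 at week 12 and −0.07 at week 18.

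Among 14 tested genes of ER calcium handling, 2 were lower in 5 of 5 animals at week 12, when 3.45% of all tested features were. They were *ATP2A2*, the pump that fills the ER with calcium (−0.31, SE 0.16), and *STIM2*, a sensor of its calcium level (−0.22, 0.14). *ITPR1*, a release channel, had −0.30 (0.19) and *SARAF* −0.16 (0.10) at week 18. *RYR1*, named after its values were seen, was then the 1 gene of the list lower in 5 of 5 animals (−0.47, 0.39), against 3.49% of all tested features. The median was −0.02 at week 12 and −0.10 at week 18, and no gene had an unadjusted p under 0.05 at either.

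Of 18 tested genes that shape the ER, 2 were lower in 5 of 5 animals at week 12, when 3.45% of all tested features were. They were the reticulon genes *RTN3* (−0.13, SE 0.10) and *RTN1* (−0.33, 0.35), the latter named after its values were seen. *RTN2* had −0.41 (0.30), and at week 18 *REEP4* had 0.25 (0.14) and *LNPK* 0.24 (0.16). The list's median was −0.06 at week 12 and 0.02 at week 18. Of 19 tested genes of the unfolded protein response, the program that answers a load of misfolded proteins, 1 was lower in 5 of 5 animals at week 12, *CREB3L2* (−0.19, 0.19). The stress sensor *ATF6* had −0.13 (0.12) at week 12 and *TRIB3* 0.28 (0.23) at week 18, with list medians of −0.05 and −0.06. No gene of these last 2 lists had an unadjusted p under 0.05 in edgeR's test at either time point.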

How the data were processed

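Libraries were made from total RNA of PBMCs by SMART-Seq v4 amplification and Nextera XT, and reads were aligned with STAR 2.7.9a. The authors deposited raw read counts per gene for the 15 libraries, without normalization or filtering. Which strand setting was counted is not given in the sources used here, so reads of overlapping antisense genes could be included. The table pairs no gene with a position, and none is given. Columns of samples outside the series numbered 0.

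Counts were scaled by TMM and tested in R 4.3.3 with edgeR 4.0.16 (quasi-likelihood F test, filterByExpr with a minimum count of 10, all 15 libraries, time point as the only term). A feature passed at a Benjamini-Hochberg adjusted p of 0.05 over all tested features. Log2 CPM used a prior count of 2, and standard errors are the log2 fold change over the square root of F. The test was checked on simulated data. Animals were paired by their identifiers in the labels. Deviations from the time point means correlated at 0.551 on average within an animal and at −0.137 between animals and time points. Alternatives were the animal as a block, DESeq2 1.42.0, limma 3.58.1 (voom), other scaling and filters, the B-cell score, and leaving out each animal. The fits that combine the block with a left-out animal were added after the data were seen.

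The 6 genes, the gene lists and the tests were chosen with earlier results of these data known. Named beside the 6 genes and *MS4A1* were, for each, the 3 features of highest within-animal correlation and the 1 of highest correlation of levels, its tested relatives, from each related list up to 2 genes of smallest unadjusted p at week 12 and at week 18, and the feature just outside the rule. No column of the authors' own comparisons was used.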

Additional observations from a re-analysis of the deposited data

Results flagged for a closer look

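In the 5 libraries of week 18, the *UBE2J1* level of Z15339 (97.7 CPM) stood apart from the others, the nearest of which was 91.1 CPM, with a gap of 0.725 of the group's whole range. The *TMCC3* level of Z15408 at week 18 (15.9 CPM) did so too, with the nearest library at 9.02 CPM and a gap of 0.781 of the range. The limit for 5 samples in Dixon's test is 0.71. In all, 18 groups of 5 libraries were checked, and chance flags about 1 in 20 groups. Both animals also had the highest level of that gene before treatment.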

How the results depend on the processing

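Counts of features that passed depended on the test and the pairing. With the animal as a block, edgeR called 1 feature at week 12 and 1 at week 18 where it called 0 without it. DESeq2 called 1 at week 12 without the block, and with it 27 at week 12, 50 of 20732 at week 18 and 8 between week 18 and week 12. Limma-voom, the other scalings and filters and each left-out animal gave 0 features in each comparison. At week 18, *KLF7* (0.13) and *TMEM170B* (0.0045) turned positive with the B-cell score and the block together, and *PHTF2* and *TMCC3* passed with DESeq2 and the block. That comparison shares its pre-treatment libraries with the selection. The correlation with *MS4A1* turned negative on deviations from the time point's mean for *ASPH* (−0.063), *KLF7* (−0.17) and *TMEM170B* (−0.41), and for *TMEM170B* without the 2 farthest libraries (−0.091). Leaving out each animal moved the *TMEM170B* correlation between −0.084 and 0.62. The causes were not tested. *TMCC3* was the gene with the widest standard error without the block (0.27).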
